A study of Homo sapiens with 2 samples.

Results

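RAB GTPases are small proteins that mark the membranes of a cell, and their mRNAs were followed here in RNA recovered with the RNA-binding protein QKI. A member was a gene whose symbol is RAB, a number and at most a letter and a further digit, read by probe sets with 1 gene symbol in the platform annotation. This gave 57 RAB genes of 18132 genes, read by 161 of 49292 probe sets. SW480 cells, an established line from a human colorectal cancer, were lysed, QKI was precipitated with an antibody, and the RNA recovered with it was measured on PrimeView arrays. There was 1 array of cells transfected with siRNA against the long noncoding RNA NONHSAT136151 (siLnc) and 1 array of cells transfected with negative control siRNA (siNC). Both groups received 100 pmol of siRNA and were collected after 48 h. The sources used here do not say which of the study's siRNAs made the siLnc array, and the study's list of oligonucleotides prints 1 sequence both for the control siRNA and for one siRNA against the lncRNA.

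A RAB protein carries GTP in its active state and GDP in its inactive state. Exchange factors load GTP, GTPase-activating proteins end the active state, and effectors such as tethers and motor adaptors bind the active form. Lipid anchors added at the carboxyl terminus hold RABs on membranes, and GDI proteins take them off again. Different RABs serve the Golgi, endosomes, lysosomes, secretory granules and the cilium. In an intestinal epithelial cell they sort cargo to the apical and basolateral surface. QKI is a member of the STAR family that binds mRNAs and regulates their splicing, stability and translation.

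The deposited values are log2 signals, 1 per probe set and array. Probe sets of a gene were averaged, and a difference was the siLnc log2 signal minus the siNC log2 signal, so that 1 is 2-fold. Each condition had a single array, so that no difference could be checked in replicates and no p-value was computed. The spread between probe sets of a gene and the spread over other genes of similar signal are given in its place. Precision is limited by this number of arrays. Input RNA and a precipitate with a control antibody were not analysed here. How much of an mRNA the cells held and how much of it came down with QKI therefore cannot be told apart. A background level of 4.64 was taken as the 95th percentile of the siNC log2 signal over 115 probe sets of 45 genes of cell types that the culture should lack, such as GFAP and ALB. The same percentile was 4.42 in siLnc, and 4.64 was used for both arrays. A difference between values below this level is not read as a change in an mRNA.

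The median log2 signal was 3.29 in siLnc and 3.32 in siNC. All 16 bacterial hybridization control probe sets of the arrays were lower in siLnc, with differences from -1.30 to -0.42. The GAPDH control had differences of 0.47 in its 5' and 0.19 in its 3' probe set. Over 14 markers of colorectal epithelium, 6 had gene means at or above the background level on at least 1 array, among them KRT18, KRT19, EPCAM and CDX2. VIL1, CDH17 and CEACAM5 lay below it in every probe set, and CDH1 lay below it in its mean but had 5.95 in siLnc and 5.88 in siNC in its brightest probe set. A list of 26 measured gland and blood genes had 12 members at least 2-fold higher in siLnc, against 0.651% of all genes, with a summed linear signal of 2507 in siLnc and 338 in siNC. That list was chosen with earlier results of these data known, so its count is a description and not a test. Among the 12, TCN1, LTF and PIGR had gene means below the background level on both arrays. The brightest probe sets of LTF and PIGR nevertheless lay above it in siLnc. They had 5.97 in siLnc and 2.45 in siNC for LTF, and 6.12 in siLnc and 2.32 in siNC for PIGR. QKI itself had a log2 signal of 6.09 in siLnc and 6.66 in siNC, with differences from -1.26 to 0.00 over its 6 probe sets. Its brightest probe set had 9.41 in siLnc and 10.06 in siNC. Of the 500 genes nearest to QKI in mean signal, RAB genes left out, 98.2% had a higher difference.

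On the deposited scale, the RAB family as a whole differed little between the arrays. RAB26, a RAB of secretory granules, was the 1 member at least 2-fold lower as measured, against 0.121% of all genes. Its siLnc value lay below the background level and its siNC value only 0.16 above it on the log2 scale. No size of decrease is therefore read. RAB22A, of early endosomes, lay just short of 2-fold (-0.99). RAB12, which directs recycling receptors to degradation, had a mean of -0.66 and at least 2-fold lower signals in both of its bright probe sets. No RAB gene was at least 2-fold higher, against 0.651% of all genes, and the highest difference was that of RAB14, of the Golgi and endosomes (0.64). The median difference over the 57 genes was -0.01, with a 95% interval over genes from -0.14 to 0.13, against -0.06 over all genes. Genes on 1 pair of arrays are not replicates, so the interval gives no error of the difference between the conditions. Of the 57, 26 lay above 0, 29 below and 2 at 0. The share above 0 was 45.6%, against 39.2% of all genes. At 1.5-fold, 1 RAB gene was higher (4.26% of all genes) and 3 were lower (1.75% of all genes), RAB26 among them.

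**Figure D1:**
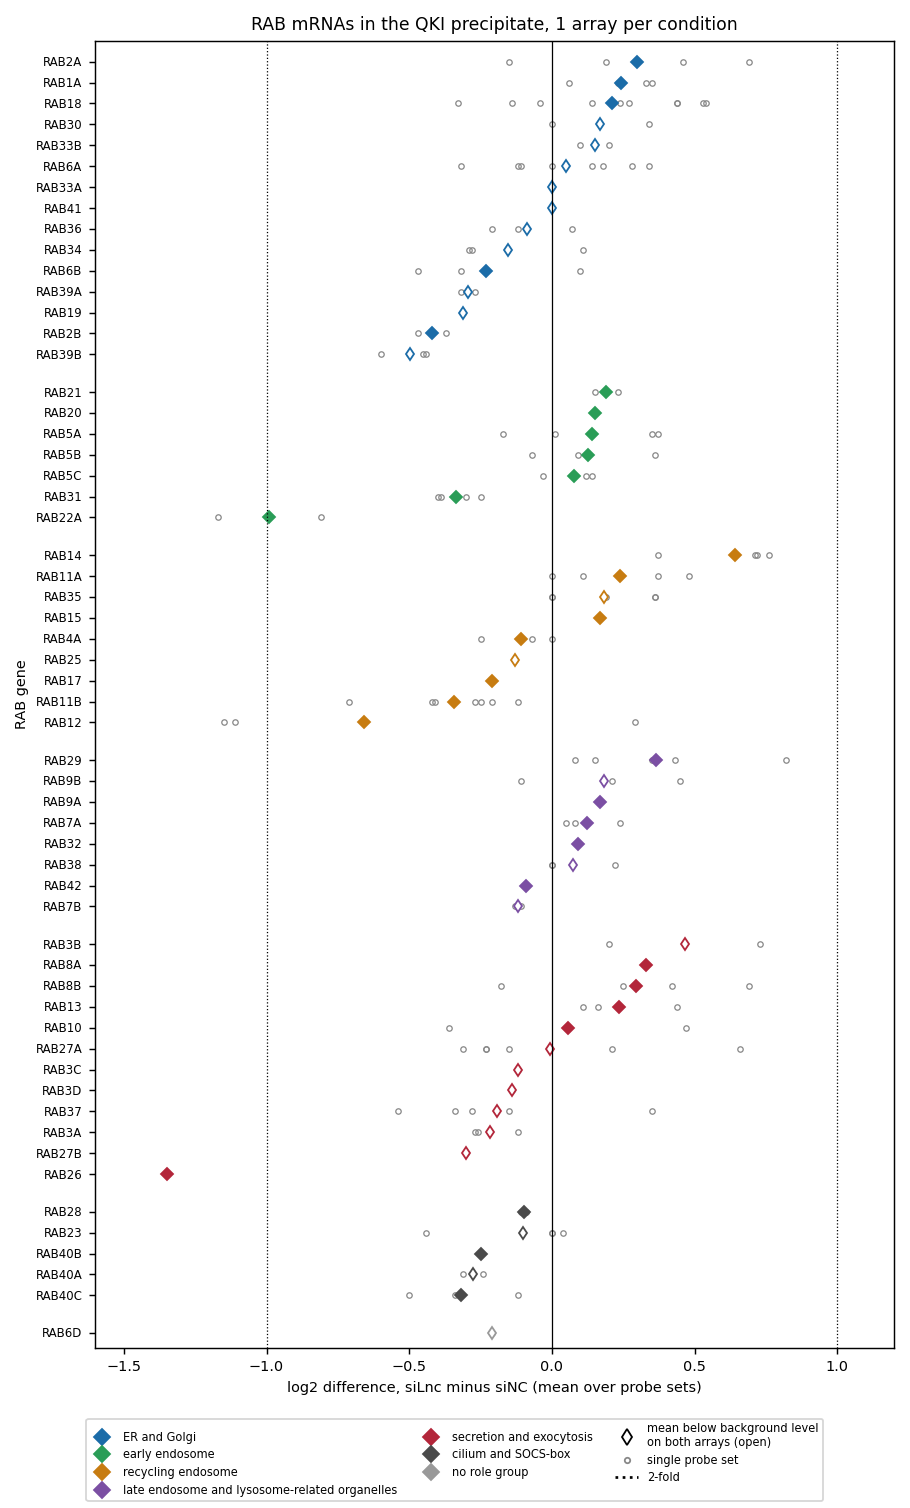
Log2 difference (siLnc minus siNC, horizontal axis) of each of the 57 RAB genes (rows), grouped by the membrane or process served. Diamonds are means over probe sets, open where the mean lay below the background level of 4.64 on both arrays; small circles are single probe sets, and dotted lines mark 2-fold. RAB26 lies beyond the line at -1 with its only probe set, RAB22A lies on the line to the eye (-0.99), and no gene reaches the line at 1.

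RAB26 directs secretory granules to the cell surface in exocrine gland cells and is also found on synaptic vesicles. Its only probe set had a log2 signal of 3.45 in siLnc and 4.80 in siNC. The siNC value lay just above the background level of 4.64 and the siLnc value lay below it. The difference was -1.35 as measured. The siNC value exceeded the background level by only 0.16 on the log2 scale (1.12-fold). That is less than the spread of differences over genes of similar signal (robust standard deviation 0.37). By its definition, some probe sets of genes that the culture should lack also lie above this level. No size of decrease is therefore read. The gland and blood genes that were higher in siLnc had differences of the opposite sign to that of RAB26, and their part in its value was not tested.

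RAB22A acts on early endosomes and returns cargo taken up without clathrin to the surface. Its brighter probe set had 7.35 in siLnc and 8.16 in siNC, and its other probe set had 5.31 in siLnc and 6.48 in siNC. All 4 values lay above the background level. The 2 probe sets differed by -0.81 and -1.17, so both were lower in siLnc. The mean difference of -0.99 became -1.12 after cyclic loess between the arrays and -1.14 after quantile normalization, so the 2-fold call depends on the scaling. RAB31, the closest relative of RAB22A, works between the trans-Golgi network and endosomes. Its 4 probe sets had signals from 6.17 to 7.25 in siLnc and from 6.56 to 7.50 in siNC. Every one was lower in siLnc, with differences from -0.40 to -0.25. They were thus below 0 in both members of the pair, though smaller in RAB31.

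RAB12 acts on recycling endosomes and in autophagy. One probe set had 6.29 in siLnc and 7.44 in siNC, and a second had 6.24 in siLnc and 7.35 in siNC. These bright probe sets differed by -1.15 and -1.11, nearly alike, and the sources used here do not say whether they share probes. The third probe set had 2.43 in siLnc and 2.14 in siNC, both far below the background level, and a difference of 0.29. The gene mean of -0.66 therefore averages signals of unlike quality. Over the probe sets above the background level it was -1.13, past 2-fold, and without the probe sets whose names mark shared or cross-hybridizing sequences it was -0.43. With RAB26 and RAB22A, these were the genes of the 4 RAB probe sets (2.48% of 161) that were at least 2-fold lower as measured, against 0.185% of all probe sets. The RAB26 probe set is 1 of the 4, and its siLnc value lay below the background level. None of the 161 was at least 2-fold higher, against 1.51% of all probe sets. At 1.5-fold, 8 RAB probe sets (4.97%) were higher, against 7.23% of all probe sets, and 7 (4.35%) were lower, against 2.58% of all probe sets.

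RAB14 had the highest difference and acts between the Golgi and endosomes. Its 3 bright probe sets had 7.11, 6.51 and 5.81 in siLnc, against 6.35, 5.80 and 5.09 in siNC. They differed by 0.76, 0.71 and 0.72, a spread of only 0.05. The fourth probe set, at 1.99 in siLnc and 1.62 in siNC, lay in the background. All 4 probe sets of RAB14 were higher in siLnc. After cyclic loess the gene mean was 0.57 and after quantile normalization 0.54.

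**Figure D2:**
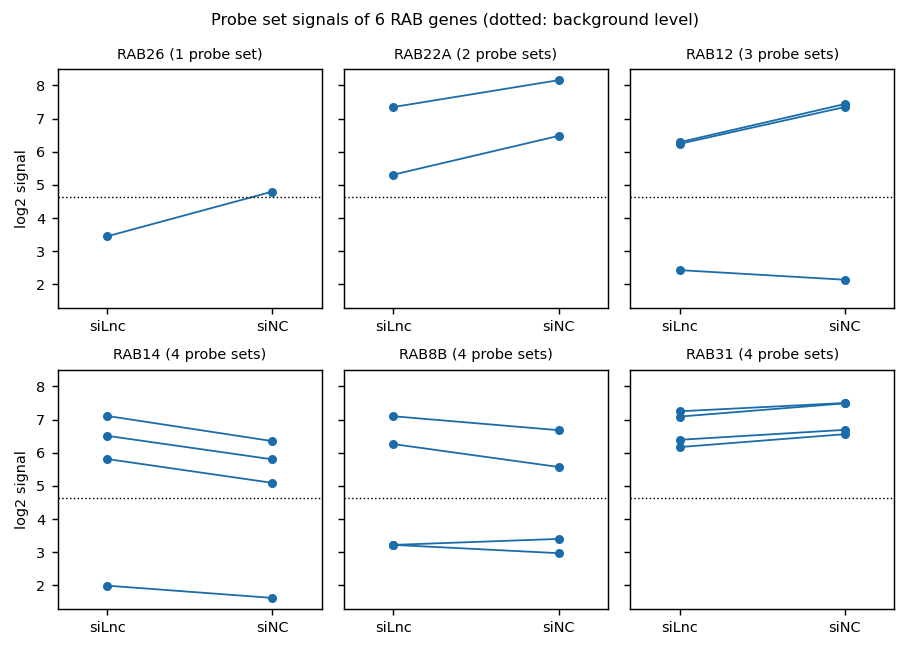
Log2 signal (vertical axis) of every probe set of 6 RAB genes on the siLnc array (left of each panel) and the siNC array (right); a line joins the values of 1 probe set and the dotted line is the background level of 4.64. The lines of RAB22A and RAB31 and the bright lines of RAB12 run up to siNC, those of RAB14 and the bright lines of RAB8B run down, and the RAB26 line crosses the background level.

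Differences on these arrays varied with signal, so RAB genes were set beside the 500 other genes nearest in mean signal. The median over RAB genes of the difference minus the median of those neighbours was 0.01, with a 95% interval over genes from -0.12 to 0.07. That interval too describes genes and not replicates. Among the 57, 32 lay above and 25 below the median of their neighbours. For 51 RAB genes the difference lay between the 5th and the 95th percentile of their neighbours. Below the 5th percentile were 5 genes (8.77%), which were RAB26, RAB22A, RAB12, RAB39B and RAB2B. Of these only RAB22A and RAB12 had gene means above the background level on both arrays. The mean of RAB39B lay below it on both, and those of RAB26 and RAB2B in siLnc. For RAB2B this depends on the array that sets the level, since its siLnc mean (4.46) exceeded the siLnc percentile of 4.42. For RAB22A the neighbours ran from -0.41 to 0.80 between these percentiles, and for RAB12 from -0.45 to 0.75. Above the 95th percentile was RAB3B (1.75%), a RAB of regulated secretion. It had 3.29 in siLnc and 2.82 in siNC, both in the background. The sign of the gap between RAB genes and other genes varied with signal. At mean signals from 3 to 4, the medians were 0.07 over 6 RAB genes and -0.08 over 3006 other genes. From 4 to 5, the 11 RAB genes had a median of -0.22 and the 2532 other genes 0.04. From 6 to 7 the medians were 0.08 over 8 RAB genes and 0.14 over 1319 other genes, and from 8 upward 0.29 over 2 RAB genes and 0.07 over 783 other genes. In the other 4 bands the medians of RAB genes ran from -0.24 to 0.09 and those of other genes from -0.14 to 0.14.

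**Figure D3:**
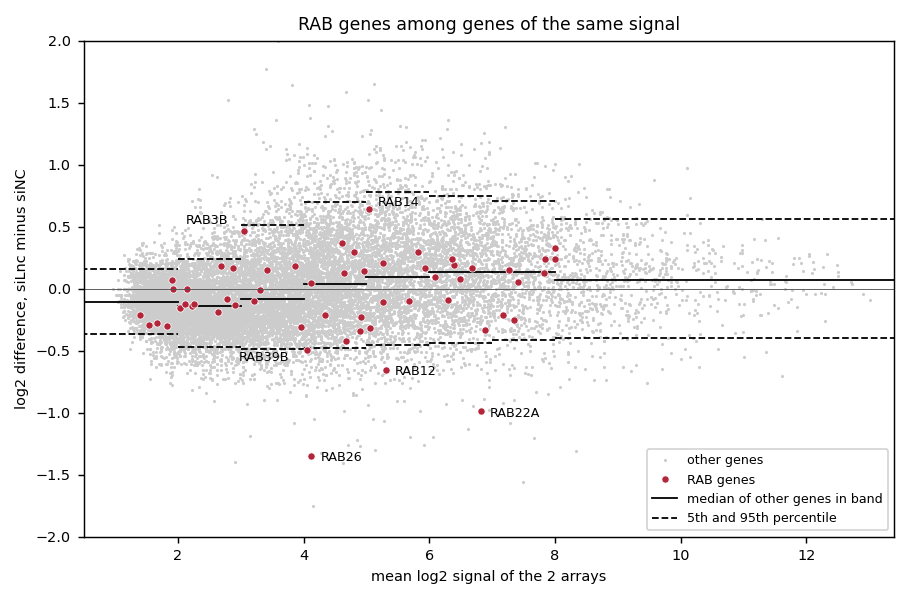
Log2 difference (siLnc minus siNC) against the mean log2 signal of the 2 arrays for the 57 RAB genes (red) and the other genes (grey); 10 other genes lie outside the plotted range. Solid and dashed steps give the median and the 5th and 95th percentiles of the other genes in bands of signal. RAB26, RAB22A, RAB12 and RAB39B lie below the lower dashed steps, and RAB14 lies inside the upper ones. The steps cover whole bands, so RAB2B and RAB3B lie inside them, though outside the percentiles of their 500 neighbours.

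Among RABs of the ER and Golgi, 15 genes were measured, with a median of 0.00, 6 above 0, 7 below and 2 at 0. For this and the next groups, the shares over all genes were 39.2% above 0 and 56.6% below. RAB1A, which carries vesicles from the ER to the Golgi, had 8.12 in siLnc and 7.88 in siNC and differences from 0.06 to 0.35 over 4 probe sets. The paralogs RAB2A and RAB2B, both of the Golgi, lay apart. RAB2A had 5.97 in siLnc and 5.67 in siNC, a difference of 0.30, while RAB2B had 4.46 in siLnc and 4.88 in siNC, a difference of -0.42. The probe sets of RAB2A ran from -0.15 to 0.69, so they did not point 1 way. Those of RAB2B were -0.47 and -0.37, and only the first lay above the background level (6.43 in siLnc and 6.90 in siNC). RAB18, of the ER and lipid droplets, had 5.37 in siLnc and 5.16 in siNC over 10 probe sets that ran from -0.33 to 0.54. RAB39B, of neuronal membranes, was lower in all 4 probe sets (-0.60 to -0.44), of which 1 lay above the background level, with 4.91 in siLnc and 5.51 in siNC. RAB6A and RAB6B, of transport back from the Golgi, had gene differences of 0.05 and -0.23. The gene means of RAB6A and of RAB39B lay in the background on both arrays. The brightest RAB6A probe set (8.14 in siLnc and 8.46 in siNC) differed by -0.32, against the positive mean. The other Golgi members, RAB19, RAB30, RAB33A, RAB33B, RAB34, RAB36, RAB39A and RAB41, had gene means in the background and differences from -0.31 to 0.17. Of these only RAB33B, which binds the autophagy factor ATG16L1, had a probe set above that level, with 5.01 in siLnc and 4.81 in siNC.

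The early endosome RABs comprised 7 measured genes, with a median of 0.13. Except for RAB22A and RAB31 all lay above 0. Against genes of like signal the median of the group was only 0.01. RAB5A, RAB5B and RAB5C, which drive the fusion of early endosomes, had gene differences of 0.14, 0.13 and 0.08. Their brightest probe sets differed by 0.01, -0.07 and 0.14. The brightest RAB5A probe set read 8.64 in siLnc and 8.63 in siNC, so these central endosomal mRNAs were nearly level on both arrays. RAB21, which moves integrins inward, had 6.49 in siLnc and 6.29 in siNC, a difference of 0.19. RAB20, found on endosomes and phagosomes, had 7.34 in siLnc and 7.19 in siNC in its 1 probe set.

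For recycling endosomes, 9 genes were measured, with 4 above 0 and 5 below and a median of -0.11. RAB14 and RAB12, already described, were its 2 extremes. RAB11A and RAB11B, close paralogs that return cargo to the surface, lay on opposite sides of 0. RAB11A had 6.49 in siLnc and 6.25 in siNC, and no probe set of it was below 0 (0.00 to 0.48). RAB11B had 4.73 in siLnc and 5.08 in siNC, and all 7 of its probe sets were below 0 (-0.71 to -0.12). The 2 RAB11B probe sets above the background level had 8.40 and 7.82 in siLnc, against 8.65 and 8.09 in siNC, and differed by -0.25 and -0.27. RAB25, the epithelial relative of both, had 2.85 in siLnc and 2.98 in siNC, both in the background. RAB4A, of rapid recycling, had 8.94 in siLnc and 9.01 in siNC in its brightest probe set. RAB17, of epithelial recycling, had 7.07 in siLnc and 7.28 in siNC, and RAB35, of the plasma membrane, a difference of 0.18. RAB15, which slows endocytic recycling, had 6.01 in siLnc and 5.84 in siNC.

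Late endosomes and lysosome-related organelles had 8 measured RABs, 6 of them above 0, and a median of 0.11. Over all genes 39.2% lay above 0. Against genes of like signal the median of the group was 0.04, and 5 of the 8 had means that reached the background level. RAB7A, which governs the late endosome and its fusion with lysosomes, had 7.89 in siLnc and 7.76 in siNC. Its 3 probe sets ran from 0.05 to 0.24, and its mean of 0.12 became -0.02 after cyclic loess and -0.01 after quantile normalization. No direction is read for it. RAB9A, of transport from late endosomes to the trans-Golgi network, had 6.77 in siLnc and 6.60 in siNC. RAB29, which brings the kinase LRRK2 to membranes, had 4.79 in siLnc and 4.42 in siNC and was above 0 in all 5 probe sets. Its brightest probe set differed by 0.08, and the largest difference (0.82) was in a probe set in the background. RAB32, of melanosomes and related organelles, differed by 0.09, and RAB42 by -0.09, each in 1 probe set above the background level. RAB7B, RAB9B and RAB38 lay in the background with differences from -0.12 to 0.18.

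The secretory RABs comprised 12 measured genes, with 5 above 0, 7 below and a median of -0.06, of which 5 genes reached the background level. Besides RAB26 these were RAB8A, RAB8B, RAB10 and RAB13, which serve the surface and junctions of epithelial cells. RAB8A had 8.17 in siLnc and 7.84 in siNC in its 1 probe set, a difference of 0.33. RAB8B, its paralog, had 7.10 and 6.26 in siLnc, against 6.68 and 5.57 in siNC, in its 2 bright probe sets, which differed by 0.42 and 0.69. Both paralogs were thus above 0. RAB13, of tight junctions, had 7.97 in siLnc and 7.73 in siNC, and its brightest probe set differed by 0.11. RAB10 gave opposite signs in its 2 probe sets. One had 7.72 in siLnc and 7.25 in siNC, the other 7.15 in siLnc and 7.51 in siNC, and its mean of 0.06 became -0.09 after cyclic loess and after quantile normalization. No direction is read for RAB10 either. RAB3A, RAB3B, RAB3C and RAB3D, which act in regulated secretion, RAB27A and RAB27B, which dock granules, and RAB37 had gene means in the background. In RAB27A 1 of 6 probe sets exceeded that level, with 5.94 in siLnc and 5.28 in siNC, and it differed by 0.66 while the gene mean was -0.01. RAB3A likewise had 1 probe set above it, which differed by -0.26.

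RABs of the cilium and those with a SOCS box, which joins them to ubiquitin ligases, had 5 measured members, all below 0, with a median of -0.25. RAB40B had 7.23 in siLnc and 7.48 in siNC, a difference of -0.25. RAB40C had 4.90 in siLnc and 5.22 in siNC, and its 3 probe sets ran from -0.50 to -0.12. RAB40A lay in the background, at 1.53 in siLnc and 1.81 in siNC. RAB28, a ciliary RAB, had 5.63 in siLnc and 5.73 in siNC and RAB23, which restrains Hedgehog signalling, 3.16 in siLnc and 3.27 in siNC. The mean of RAB23 thus lay in the background too, and its probe sets ran from -0.44 to 0.04. The differences of this group were all smaller than 2-fold, and over all genes 56.6% lay below 0. RAB6D, placed in no group, lay in the background with a difference of -0.21.

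The probe sets of a RAB gene often disagreed. Of the 57 genes, 17 were read by 1 probe set. Among the other 40, all probe sets lay on the same side of 0 in 19 (47.5%), against 44.7% of all genes with at least 2 probe sets. The median range between the highest and the lowest probe set of a RAB gene was 0.37, against 0.35 over all such genes, and RAB12 had the widest (1.44). This spread is larger than the gene difference of most members. On both arrays 12 RAB probe sets had equal values (7.45%, against 9.07% of all probe sets), while 73 (45.3%) lay above 0, against 41.1% of all probe sets, and 76 (47.2%) below 0, against 49.9% of all probe sets. At or above the background level lay 82 of the 161 RAB probe sets, 48 with differences above 0, 33 below and 1 at 0. Their median was 0.11, against 0.13 over 17702 such probe sets in all. In 39 RAB genes at least 1 probe set reached this level, and 23 had 2 or more. All such probe sets were above 0 in 9 of the 23, which were RAB1A, RAB5A, RAB7A, RAB8B, RAB13, RAB14, RAB21, RAB29 and RAB35. In 7 of the 23, RAB4A, RAB11B, RAB12, RAB22A, RAB28, RAB31 and RAB40C, all were below 0. The same counts by sign were not made over all genes. Since the median of all such probe sets (0.13) was itself above 0, these counts are not read as a trait of RAB genes.

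The 18 RAB genes with no probe set at the background level were RAB3B, RAB3C, RAB3D, RAB6D, RAB7B, RAB9B, RAB19, RAB25, RAB27B, RAB30, RAB33A, RAB34, RAB36, RAB37, RAB38, RAB39A, RAB40A and RAB41. Several of them serve neurons, glands or pigment cells, such as RAB3C, RAB27B and RAB38. Their gene differences ran from -0.31 (RAB19) to 0.47 (RAB3B). Within subfamilies the differences of RAB8A and RAB8B lay 0.04 apart and those of RAB5A, RAB5B and RAB5C at most 0.06. Those of RAB2A and RAB2B lay 0.72 apart and those of RAB22A and RAB31 0.66.

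Some RAB genes were read only or also by probe sets that name several genes, which were not counted among the 161. RAB1A and RAB1B shared 3 such probe sets, with differences of -0.20, -0.16 and 0.58. RAB6A shared 2 with RAB6C and RAB6D, with -0.19 and 0.22. Of the 2 naming RAB43 and a readthrough gene, the brighter had 7.09 in siLnc and 7.48 in siNC. The 1 naming RAB4B had 4.46 in siLnc and 4.78 in siNC, and the 2 naming RAB24 and the neighbouring gene MXD3 differed by -0.22 and -0.08. None of the 12 probe sets of this kind reached 2-fold. Paralogs as close as RAB1A and RAB1B may share signal in other probe sets too.

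Genes that act on RABs were then described from lists of regulators and effectors. The counts and medians cover every measured gene of a list, and the genes named are those with the highest and lowest differences among genes whose mean reached the background level on at least 1 array. One of them was at least 2-fold higher, against 0.651% of all genes, and none was at least 2-fold lower, against 0.121% of all genes. Over all genes, 39.2% lay above 0 and 56.6% below. The counts by sign include genes whose means lay in the background. Among genes for the lipid anchoring, delivery and retrieval of RABs, 6 were measured, with 4 above 0 and a median of 0.10. GDI2, which extracts RABs from membranes, had 8.04 in siLnc and 7.53 in siNC, and all 5 of its probe sets were above 0 (0.31 to 0.71). RABGGTB, a subunit of the transferase that attaches the lipid anchor, had 6.84 in siLnc and 6.91 in siNC. RABAC1, a membrane receptor for prenylated RABs, had 8.58 in siLnc and 8.42 in siNC. Anchoring and retrieval genes thus stayed below 2-fold.

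Of 50 measured exchange factors, 19 lay above 0 and 31 below, with a median of -0.13. Only 23 of the 50 had means that reached the background level on at least 1 array, so no lean of the list is read. RIN2, an exchange factor for RAB5, was the 1 gene at least 2-fold higher. It had 6.22 in siLnc and 5.04 in siNC, and its 2 probe sets differed by 1.09 and 1.28. The RAB5 genes themselves differed by at most 0.14. TRAPPC3, of the TRAPP complexes that activate RAB1, had 7.20 in siLnc and 6.40 in siNC in its 1 probe set. DENND6A, an exchange factor for RAB14, had 7.69 in siLnc and 6.93 in siNC, a difference of 0.76, beside the 0.64 of RAB14. Each of these 3 lay above the background level on both arrays. RAB3IL1, an exchange factor for RAB8 and RAB3A, had 4.15 in siLnc and 4.72 in siNC, and DENND2B 4.34 in siLnc and 4.69 in siNC, so the gene means of both lay above that level only in siNC.

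The 36 measured GTPase-activating proteins had a median of 0.00, with 18 above 0 and 18 below. RAB3GAP2, a subunit of the RAB3GAP complex that also activates RAB18, had 5.04 in siLnc and 4.43 in siNC and probe sets from 0.38 to 0.87. TBC1D7, which is also a subunit of the TSC complex, differed by 0.32. TBC1D14 had a mean of 0.14, but its probe sets were of opposite sign, and the brightest had 7.50 in siLnc and 7.64 in siNC. Among genes at the background level, the lowest were TBC1D17 with -0.32 and SGSM3 with -0.30. Genes whose means lay in the background ran from -0.53 (EVI5L) to 0.52 (TBC1D4), further than the others only at the low end.

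Among 41 measured effectors, 20 lay above 0 and 21 below, with a median of -0.01. SYTL1, a synaptotagmin-like protein that binds RAB27, had 4.37 in siLnc and 5.09 in siNC, and its probe sets differed by -0.75 and -0.69. GOLGA5, a golgin, had 6.87 in siLnc and 7.35 in siNC. RABEP1, which binds active RAB5 and RAB4, had 6.91 in siLnc and 6.48 in siNC, and its 4 probe sets were close together (0.40 to 0.48). APPL1, another RAB5 effector, had a mean of 0.46, but -0.09 in its brightest probe set. GCC2, a golgin of the trans-Golgi network, had 5.36 in siLnc and 4.99 in siNC. No effector reached 2-fold in either direction.

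**Figure D4:**
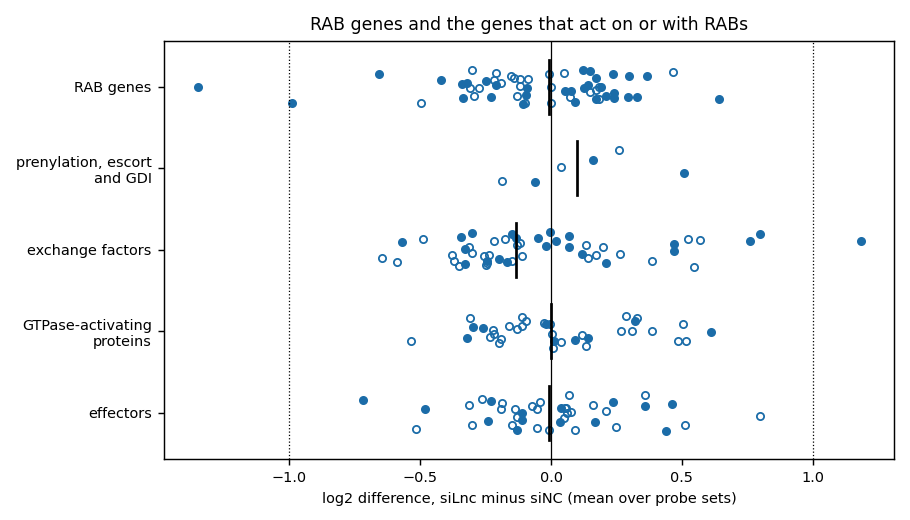
Log2 difference (siLnc minus siNC, horizontal axis) of the 57 RAB genes and of the genes in 4 lists that act on or with RABs (rows; vertical jitter within a row has no meaning). Filled points reach the background level on at least 1 array, open points do not, black bars are medians and dotted lines mark 2-fold. RIN2, at 1.19 among the exchange factors, is the 1 point right of the line at 1, and RAB26 the 1 point left of the line at -1.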

How the data were processed

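One log2 value for each probe set of each array was deposited by the authors. That the base is 2 follows from the highest value (13.28), which exceeds 11.09, the natural log of the 16-bit maximum. The submitters' processing notes name GCOS, and a company ran the arrays and their analysis. The sources used here do not give the background correction, the summarisation or the normalization. Of 49371 probe sets, 79 controls were left out, 44988 carried 1 symbol, 1832 several and 2472 none. RefSeq identifiers changed 0 symbols.

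Differences were siLnc minus siNC. Named RAB genes were those past 2-fold, the 10 highest and 10 lowest among genes at the background level, and the 5 with the highest signal; each regulator list gave its 3 highest and 2 lowest among genes whose mean reached the background level on at least 1 array. The members and lists were chosen with earlier results of these data known, and further RAB genes were named to account for all members. Intervals of medians come from binomial order statistics over genes, which are not replicates. The steps were tested on simulated data. Cyclic loess and quantile normalization were run with limma 3.58.1 (R 4.3.3), and the remaining steps with Python 3.11.15, numpy 2.4.6, pandas 2.3.3, scipy 1.17.1 and matplotlib 3.10.9. No sequence is shown, since no transcript or protein sequences were used here.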

Additional observations from a re-analysis of the deposited data

How the results depend on the processing

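No paired analysis was possible because each condition has 1 array and the labels give no replicate numbers. No replicate could be left out for the same reason. The count of RAB genes at least 2-fold higher in siLnc stayed at 0 under every alternative of probe set choice, signal filter and normalization, and at a 3-fold threshold, and was 1 at a 1.5-fold threshold. Each normalization tried brings the 2 arrays to a common level, so none could show a shift shared by all genes. Scaling on the hybridization controls, which were lower in siLnc, was not tried. The count at least 2-fold lower was 1, and it was 2 with the brightest probe set, the median over probe sets or probe sets at the background level alone (RAB12 and RAB26), and 2 after cyclic loess or quantile normalization (RAB22A and RAB26). It was 3 at a 1.5-fold threshold and 0 at a 3-fold threshold. Over all genes, the counts at least 2-fold higher and lower were 118 and 22, against 201 and 49 with the brightest probe set, 68 and 35 after quantile normalization and 85 and 33 after cyclic loess. The median difference of RAB genes ran from -0.07 with the brightest probe set to 0.09 over probe sets at the background level. Over those, the median of all genes was 0.11. The median against genes of like signal ran from -0.05 to 0.03. Of 22 named RAB genes, 20 kept their sign under every alternative that gave them a value, and RAB7A and RAB10 did not. RAB7A, RAB8A, RAB11B, RAB13 and RAB17 had no value without the probe sets whose names mark shared or cross-hybridizing sequences. That setting left 51 RAB genes, and the filter on the background level left 39. Signal over background limits the 18 RAB genes without a probe set at that level, and RAB26 in siLnc.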
